A study of Homo sapiens with 6 samples.

Results

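The 10 genes followed here run mitosis and its checkpoint, and their levels were read in 6 libraries. They were listed by symbol, with earlier results of these data known, and they are 10 of the 31142 genes measured. CDK1 and its partners CCNB1 and CCNB2 form the kinase that starts mitosis. PLK1, AURKA and AURKB are the Polo and Aurora kinases. BUB1, BUB1B and TTK belong to the spindle assembly checkpoint, and CDC20 is the protein which that checkpoint holds back. Each symbol had 1 identifier, and all 10 genes passed the filter for testing, a mean of at least 1 FPKM (a count of RNA fragments scaled for transcript length and for the size of the library).

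At the onset of mitosis, cyclin B bound to CDK1 switches on the phosphorylation that condenses chromosomes and builds the spindle, with Polo and Aurora kinases amplifying and positioning that signal. Kinetochores that are not yet attached to the spindle recruit TTK, BUB1 and BUBR1 (the product of BUB1B), which keep CDC20 from activating the anaphase-promoting complex. Once every kinetochore is attached, CDC20 turns the complex on, cyclin B and securin are destroyed, and the chromatids separate. The RNAs of these genes accumulate in G2 and M phase, so in bulk RNA a lower share of dividing cells and less of each RNA per cell cannot be told apart.

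The libraries are labelled as SKM-1, a leukemia line derived from a patient whose myelodysplastic syndrome had progressed, in which U2AF1, a factor that recognizes the end of introns, was introduced by lentivirus to learn how its mutation affects growth and survival. The S34F group (n = 3) is labelled as carrying U2AF1 with serine 34 changed to phenylalanine, and the WT group (n = 3) as wild-type. The design speaks of FLAG-tagged lentivirus for both forms. Per the methods, the vector was driven by a ubiquitin promoter, carried GFP and puromycin resistance and was selected as stable cells, and RNA was taken at 96 h. The WT titles begin with letters that the study also uses to shorten negative control, and its methods mention a vehicle control and untransfected cells as controls. Whether the WT libraries hold a transgene was not settled by the labels or by these values. The U2AF1 form named in each title set the groups here. The study describes its RNA samples as independent and the treatment as done in triplicate, without saying whether the replicates came from separate transductions, so p-values measure the spread between these samples.

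The commonest value of FPKM times length among single-exon, single-transcript genes was assumed to be 1 fragment. On that assumption the libraries had depths of about 20.5 to 26.1 M (mega) fragments. This corresponds to about 185 to 272 fragments for TTK, the lowest of the 10 genes, and about 3035 to 5027 for CDC20. S34F replicate 3, and to a lesser degree WT replicate 3, stood apart from the other 4 libraries. Over the genes tested, S34F replicate 3 correlated at 0.975 with WT replicate 3 and at 0.953 and 0.954 with S34F replicates 1 and 2. WT replicate 3 correlated about as highly with WT replicates 1 and 2 (0.976 and 0.975) as with S34F replicate 3. The other 4 libraries correlated at 0.982 to 0.986 with one another. The markers went against the label. All 12 erythroid genes on the list reached a mean of 1 FPKM, and together they came to 12140 to 13909 FPKM in S34F and 11747 to 12839 FPKM in WT. Of the 12 monocytic genes 11 were measured, 3 reached 1 FPKM on average (CD68, LYZ and ITGAM), and MPO, FCN1 and S100A8 were at or near 0, with sums of 44.0 to 73.1 FPKM in S34F and 64.7 to 85.4 FPKM in WT. Of the 6 lymphoid genes 4 were measured and only CD3D reached 1 FPKM. U2AF1, whose level joins the endogenous and any introduced RNA and cannot tell the forms apart, was at 9.18 to 9.48 FPKM in S34F and at 7.65 to 8.70 FPKM in WT.

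The start regions of these genes are shown first because genes of this phase are known to share short promoter motifs, the CCAAT box bound by NF-Y and the cell cycle genes homology region (CHR) bound by the DREAM complex. The 150 bases before the annotated gene start were read for the 8 genes with an entry in the RefSeq promoters of GRCh38.p14. AURKA and TTK were without one, and CDK1 and AURKB had 2 starts each. These starts are those of RefSeq and can differ from the GENCODE gene coordinates given further on. The windows of PLK1 and AURKB, for example, lay wholly inside those gene coordinates. Capitals mark the CCAAT box, which reads ATTGG when it lies on the opposite strand. They also mark the CHR, which was searched as TTTGAA or TTCGAA. Both motifs were searched on both strands, no match overlapped another, and each sequence is written 5′ to 3′ on the strand of its gene. The 6 windows printed are those that hold at least 2 of the motifs, with the second of the 2 CDK1 starts.
CDK1 (chr10:60778328-60778477, plus strand): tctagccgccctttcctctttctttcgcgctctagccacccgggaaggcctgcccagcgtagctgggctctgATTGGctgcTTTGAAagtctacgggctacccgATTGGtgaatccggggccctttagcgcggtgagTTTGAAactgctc
CCNB1 (chr5:69167000-69167149, plus strand): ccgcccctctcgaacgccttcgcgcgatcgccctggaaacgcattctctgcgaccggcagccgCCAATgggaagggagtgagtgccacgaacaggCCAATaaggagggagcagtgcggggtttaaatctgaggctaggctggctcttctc
CCNB2 (chr15:59104996-59105145, plus strand): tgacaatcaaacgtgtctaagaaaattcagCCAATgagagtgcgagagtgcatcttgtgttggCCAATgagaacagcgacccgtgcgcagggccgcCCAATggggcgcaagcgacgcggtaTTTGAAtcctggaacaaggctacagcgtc
PLK1 (chr16:23678739-23678888, plus strand): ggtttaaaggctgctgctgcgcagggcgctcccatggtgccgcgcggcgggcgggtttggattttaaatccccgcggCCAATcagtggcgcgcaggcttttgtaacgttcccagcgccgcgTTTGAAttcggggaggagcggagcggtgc
CDC20 (chr1:43358831-43358980, plus strand): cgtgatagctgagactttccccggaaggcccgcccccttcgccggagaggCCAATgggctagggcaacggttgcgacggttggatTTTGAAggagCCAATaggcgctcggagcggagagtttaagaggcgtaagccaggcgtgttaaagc
BUB1 (chr2:110678064-110678213, minus strand): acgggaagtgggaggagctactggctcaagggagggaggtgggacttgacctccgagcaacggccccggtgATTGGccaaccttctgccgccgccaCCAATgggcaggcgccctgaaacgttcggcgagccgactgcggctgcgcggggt

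Of the 10 entries of these 8 genes, 8 held at least 1 CCAAT box in this window, against 23.5% of all 35116 promoter entries. In 5 of the 10 there were 2 or more, against 5.97%. A CHR was found in 5 of the 10 (CCNB2, PLK1, CDC20, BUB1B and the second CDK1 start), against 7.87%, and 4 of the 10 held both motifs, against 2.10%. The box of AURKB and the CHR of CDK1 lay only before the second start of each gene. CCNB2 carried CCAAT boxes that began 120, 87 and 54 bases before the start, spaced by 33 bases each, and a CHR 29 bases before it. The second CDK1 start also held 4 matches, with CCAAT boxes at 78 and 46 bases and a CHR at 69 and 13 bases. The boxes of CCNB1 were 32 bases apart, as were those of CDK1, and PLK1 had its CHR at the same 29 bases as CCNB2. CDC20 held its CHR between CCAAT boxes 45 bases apart, and BUB1 had boxes 25 bases apart and no CHR match. These are matches of letters, not measured binding, and no element was measured here.

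The 10 genes spanned a wide range of levels, in an order that was nearly the same in every library. CDC20 had the highest mean over the 6 libraries, 103.8 FPKM, followed by CCNB1 at 59.7 FPKM, PLK1 at 44.6 FPKM, CCNB2 at 26.7 FPKM and AURKA at 21.6 FPKM. AURKB had 18.2 FPKM, CDK1 17.4 FPKM, BUB1 13.3 FPKM, BUB1B 9.37 FPKM and TTK 2.43 FPKM. Each neighbour in this order ranked the same way in 6 of 6 libraries, except AURKA above AURKB, in 5 of 6, and AURKB above CDK1, in 3 of 6. AURKB and CDK1 therefore could not be ranked, and only PLK1 over CCNB2 and BUB1B over TTK had ranges over the 6 libraries that did not overlap. The coefficient of variation ran from 13.4% for TTK to 30.1% for BUB1.

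**Figure D1:**
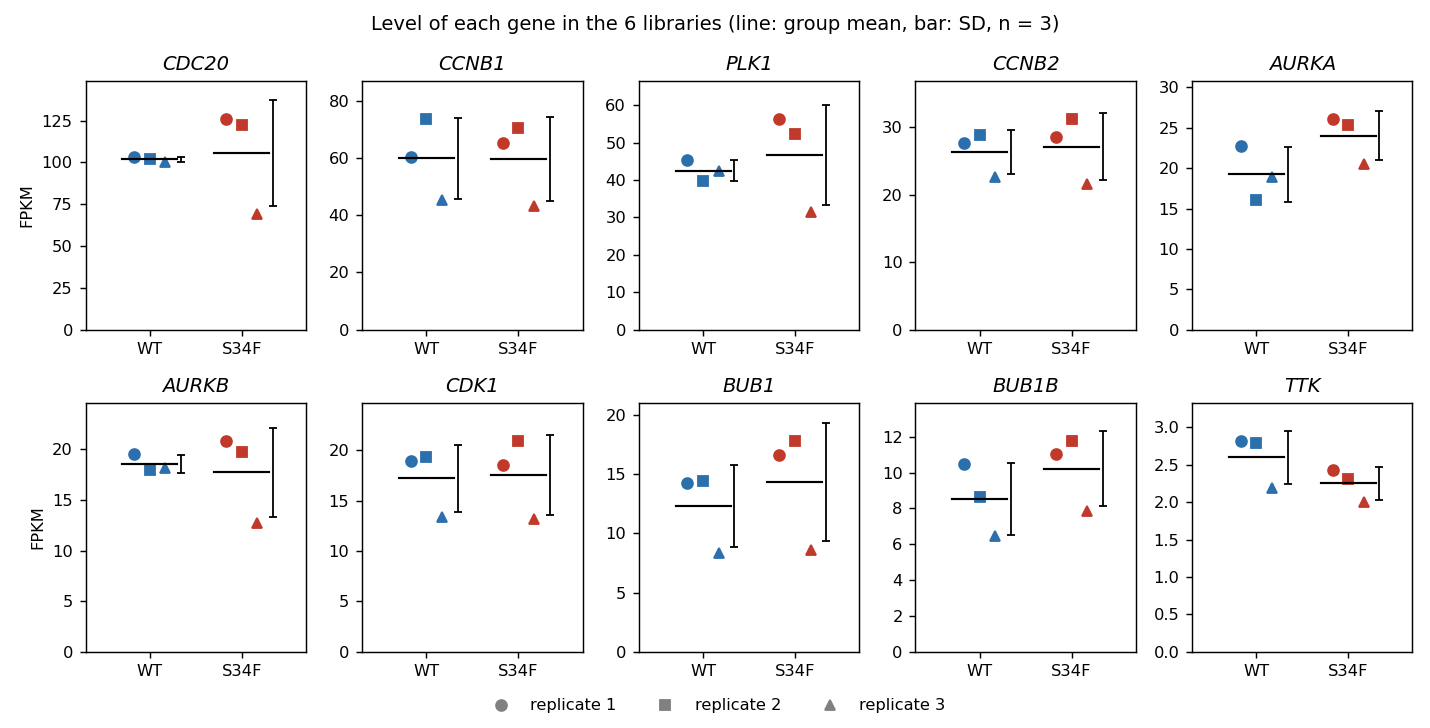
FPKM of each gene (y axis, from 0, a scale of its own for each gene) in the 3 WT and 3 S34F libraries, with the group mean as a line, the SD as a bar and the replicate number as the symbol. The triangles (replicate 3) are the lowest of their group for all 10 genes in S34F and for 7 of 10 in WT, and the groups overlap for every gene.

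CDK1, the kinase at the center of mitotic entry (chr10:60778331-60794852, plus strand, GRCh38), had 18.5, 20.9 and 13.2 FPKM in S34F replicates 1 to 3 and 18.9, 19.4 and 13.4 FPKM in WT replicates 1 to 3. The 2 lowest values were the replicate 3 of each group, nearly equal, and the rest overlapped. The means were 17.5 ± 3.95 FPKM (SD, n = 3) in S34F and 17.2 ± 3.36 FPKM (n = 3) in WT. The log2 fold change was 0.02 with a standard error (SE) of 0.21 and a 95% interval of -0.48 to 0.52 (unadjusted p = 0.931 and adjusted p = 1.00, limma with Benjamini-Hochberg adjustment). CCNB1, the B-type cyclin most used at mitotic entry (chr5:69167010-69178245, plus strand), had 65.2, 70.6 and 43.1 FPKM in S34F and 60.4, 73.6 and 45.4 FPKM in WT. It showed the same shape as CDK1, with its highest value in WT replicate 2. CCNB1 differed by -0.01 on the log2 scale (SE 0.24, 95% interval -0.58 to 0.56, unadjusted p = 0.973 from limma). CCNB2, its Golgi-associated relative (chr15:59105078-59125045, plus strand), had 28.6, 31.2 and 21.6 FPKM in S34F and 27.6, 28.8 and 22.6 FPKM in WT. Its log2 fold change was 0.03 (SE 0.17, 95% interval -0.37 to 0.43, unadjusted p = 0.850 from limma). For CDK1 and both cyclins, the replicate 3 libraries of the groups differed by only -0.02, -0.07 and -0.06 on the log2 scale.

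PLK1, the Polo kinase that acts at centrosomes, kinetochores and the midbody (chr16:23677656-23690367, plus strand), had 56.3, 52.2 and 31.5 FPKM in S34F and 45.3, 39.8 and 42.5 FPKM in WT. S34F replicates 1 and 2 were above all 3 WT libraries and S34F replicate 3 was below all 3. The means were 46.7 ± 13.3 FPKM (SD, n = 3) and 42.5 ± 2.78 FPKM (n = 3), and the log2 fold change was 0.09 (SE 0.22, 95% interval -0.43 to 0.61, unadjusted p = 0.688 from limma). AURKB, the Aurora kinase of the chromosomal passenger complex (chr17:8204733-8210600, minus strand), showed the same arrangement, at 20.8, 19.7 and 12.7 FPKM in S34F and 19.6, 18.0 and 18.2 FPKM in WT. Its log2 fold change was -0.09 (SE 0.19, 95% interval -0.54 to 0.35, unadjusted p = 0.636 from limma).

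AURKA, the Aurora kinase of the spindle poles (chr20:56369389-56392337, minus strand), had the largest difference of the 10 genes. It had 26.1, 25.4 and 20.5 FPKM in S34F and 22.8, 16.0 and 19.0 FPKM in WT, with means of 24.0 ± 3.02 FPKM (SD, n = 3) and 19.3 ± 3.40 FPKM (n = 3). S34F was the higher in each pair of libraries with the same number, but S34F replicate 3 lay below WT replicate 1, so the groups overlapped. The log2 fold change was 0.31 (SE 0.16, 95% interval -0.07 to 0.69), with an unadjusted p of 0.0949 and an adjusted p of 1.00 from limma, and a two-sided exact permutation p of 0.2. A pseudogene copy, AURKAP1, had 0.713 to 1.26 FPKM in S34F and 0.190 to 0.825 FPKM in WT, with a mean at 3.42% of that of AURKA, and reads can be divided between near-identical copies.

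CDC20, the activator of the anaphase-promoting complex (chr1:43358955-43363203, plus strand), had 126.0, 122.1 and 69.0 FPKM in S34F and 103.2, 101.9 and 100.4 FPKM in WT. The WT libraries lay within a few FPKM of one another, while S34F replicates 1 and 2 were above all of them and S34F replicate 3 was far below. The means were nearly equal, 105.7 ± 31.9 FPKM (SD, n = 3) in S34F and 101.8 ± 1.36 FPKM (n = 3) in WT, and the log2 fold change was 0.00 (0.00337 before rounding, SE 0.23, 95% interval -0.54 to 0.55, unadjusted p = 0.989 from limma). The CDC20P1 copy had a mean at 1.69% of that of CDC20.

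BUB1, the checkpoint kinase that also marks centromeres for the passenger complex (chr2:110637698-110678114, minus strand), had 16.6, 17.8 and 8.60 FPKM in S34F and 14.2, 14.4 and 8.31 FPKM in WT. It was the most variable of the 10 genes, and both replicate 3 libraries sat well below the other 4. Its log2 fold change was 0.18 (SE 0.31, 95% interval -0.56 to 0.92, unadjusted p = 0.580 from limma, and 0.5 from the two-sided exact permutation test). BUB1B, which encodes the inhibitor BUBR1 of the mitotic checkpoint complex (chr15:40161023-40221136, plus strand), had 11.1, 11.8 and 7.85 FPKM in S34F and 10.5, 8.62 and 6.46 FPKM in WT. As for BUB1, S34F was the higher in every pair of the same number, and its log2 fold change was 0.24 (SE 0.21, 95% interval -0.25 to 0.73, unadjusted p = 0.285 from limma). TTK, the kinase (also called MPS1) at the head of the checkpoint (chr6:80003887-80042527, plus strand), had 2.44, 2.31 and 2.01 FPKM in S34F and 2.82, 2.79 and 2.19 FPKM in WT. TTK was the only gene of the 10 lower in S34F in all 3 pairs of the same number, with a log2 fold change of -0.15 (SE 0.12, 95% interval -0.43 to 0.14, unadjusted p = 0.265 from limma), a scale on which the added 1 FPKM shrinks the differences of a gene this low.

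Over the 10 genes, 7 had a higher and 3 a lower mean in S34F, and the median difference was 0.03 on the log2 scale, beside 0.01 over the 10942 genes tested. None of the 10 was called at a fold change above 1.5 with an unadjusted p under 0.05 (0.585% of all genes tested were), and none had an unadjusted p under 0.05 from limma (2.39%). At an adjusted p under 0.05 the share was 0% for all genes. None of the 10 had groups whose FPKM ranges did not overlap (7.38% of all genes). The 95% interval stayed inside a 1.5-fold change in either direction for 6 of the 10 genes, CDK1, CCNB1, CCNB2, AURKB, CDC20 and TTK. For PLK1, AURKA, BUB1 and BUB1B it reached past a 1.5-fold rise. This count moved with the fit. In the blocked fit it was 9 of 10, with AURKA alone reaching past 1.5-fold (95% interval -0.03 to 0.65), and with 1 library left out it was 1 (TTK, without WT replicate 2) to 5 of 10 (without S34F replicate 3).

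**Figure D2:**
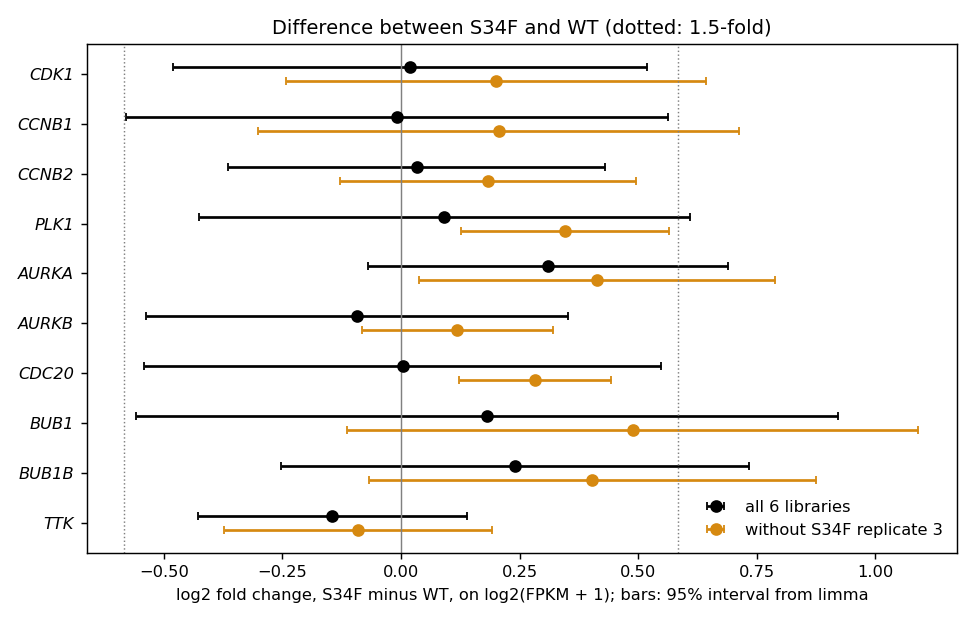
Log2 fold change of each gene, S34F minus WT, on log2(FPKM + 1) (x axis), with 95% intervals from limma, over all 6 libraries (black) and without S34F replicate 3 (orange), and dotted lines at 1.5-fold in either direction. Every black interval crosses 0, and without S34F replicate 3 those of PLK1, AURKA and CDC20 lie above 0. S34F replicate 3 was the lowest of its group for all 10 genes, so leaving it out could only move the estimates up.

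The libraries also differed by replicate number, more clearly in S34F than in WT, where the count was nearer to the share of all genes. S34F replicate 3 was below S34F replicates 1 and 2 for 10 of the 10 genes (43.5% of all genes tested). WT replicate 3 was below WT replicates 1 and 2 for 7 of the 10 (50.2%), all except PLK1, AURKA and AURKB. S34F replicate 3 was the lowest of the 6 libraries for 7 of the 10 genes (27.3% of all genes tested). A replicate 3 library was the lowest for 9 of the 10 (50.9%), with WT replicate 3 the lowest for BUB1 and BUB1B and WT replicate 2 for AURKA. Summed over the 10 genes, the libraries held 371.6, 374.0 and 230.1 FPKM in S34F and 325.4, 323.3 and 278.3 FPKM in WT. The 10 genes thus took 0.109%, 0.109% and 0.0686% of all FPKM in S34F and 0.0934%, 0.0938% and 0.0787% in WT.

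The 10 genes fell into a pair of patterns in replicate 3, which were set apart after their values were seen. CDK1, CCNB1, CCNB2, BUB1, BUB1B and TTK were low in both replicate 3 libraries. BUB1 was at 50.0% of the mean of replicates 1 and 2 in S34F and at 58.1% in WT, CDK1 at 66.9% and 69.7%, CCNB1 at 63.5% and 67.8%, and BUB1B at 68.8% and 67.6%. CCNB2 and TTK were closer to the rest of their groups, at 72.2% and 80.0% for CCNB2 and at 84.6% and 78.3% for TTK. CDC20, PLK1, AURKB and AURKA were low in replicate 3 of S34F but not of WT. CDC20 was at 55.6% of the mean of replicates 1 and 2 in S34F and at 98.0% in WT, PLK1 at 58.1% and 99.8%, AURKB at 62.6% and 96.6%, and AURKA at 79.8% and 97.6%.

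**Figure D3:**
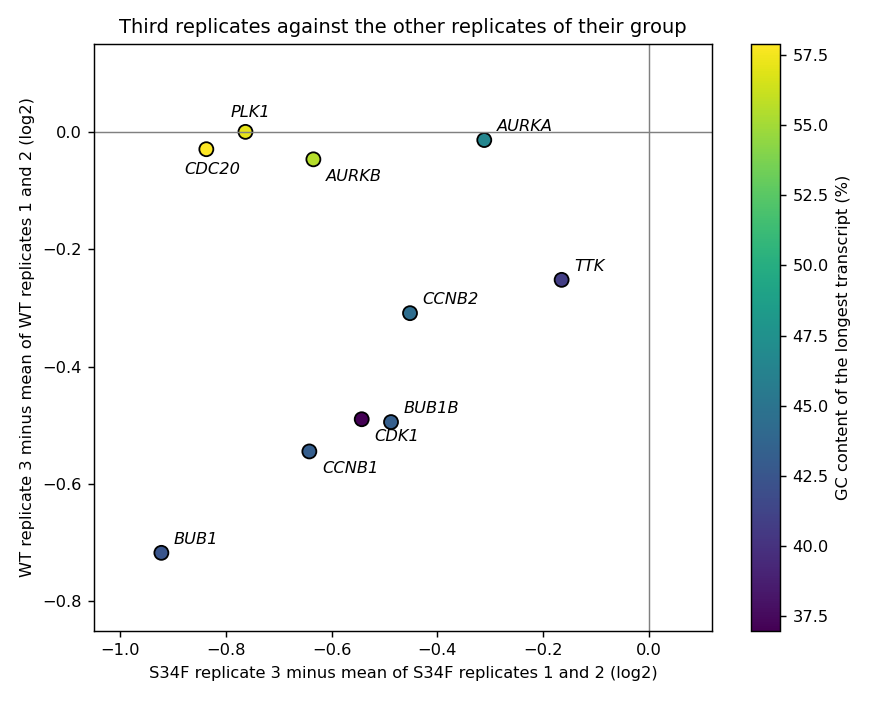
Difference of replicate 3 from the mean of replicates 1 and 2 on log2(FPKM + 1) for each gene, in S34F (x axis) and in WT (y axis), with points colored by the GC content of the longest annotated transcript. CDC20, PLK1, AURKB and AURKA lie on the line of no difference in WT, and the other 6 genes lie below it.

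The patterns also differed in base composition, by a narrow gap. The longest transcripts of the 6 genes low in both replicate 3 libraries had a GC content of 37.0% (CDK1) to 44.3% (CCNB2), and those of the other 4 had 46.6% (AURKA) to 57.9% (CDC20). Over all genes tested, the replicate 3 libraries also moved with GC content. With the genes cut into 5 equal bins by GC content, the median difference of replicate 3 from replicates 1 and 2 went from 0.09 in the lowest bin to -0.20 in the highest on the log2 scale in S34F, and from -0.12 to 0.02 in WT. The correlation with GC content across 10928 genes, which are not independent replicates, was -0.21 in S34F and 0.15 in WT. The drop of CDC20 in S34F replicate 3 was -0.84 and that of BUB1 was -0.92, beyond the median of any of these bins. The 6 genes low in both replicate 3 libraries had differences of -0.16 (TTK) to -0.92 (BUB1) in S34F. The S34F medians of the 2 lowest bins, which span the GC content of these 6 genes, had the opposite sign, at 0.09 and 0.10. AURKA also lay in the higher of these 2 bins, so the bins did not separate the patterns. The part that base composition had in these values was not tested.

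The summed markers of dividing cells were also lowest in replicate 3. The sum of MKI67, TOP2A, PCNA and MCM2 was 159.3, 166.7 and 116.4 FPKM in S34F and 144.5, 147.2 and 120.9 FPKM in WT. TOP2A, PCNA and MCM2 were each lowest in the replicate 3 of each group. MKI67 was lowest there in S34F but highest in WT, at 3.11 FPKM against 2.58 and 2.25 FPKM. The erythroid sum was lowest in replicate 3 too, at 12140 FPKM in S34F and 11747 FPKM in WT. Its genes differed, with ALAS2 highest there (396.3 and 400.8 FPKM), HBE1 highest of WT in WT replicate 3 (5652 FPKM) and HBZ highest in S34F replicate 3 (1439 FPKM) and lowest in WT replicate 3 (668.7 FPKM). The monocytic sum was highest in replicate 3, at 73.1 and 85.4 FPKM. In S34F this was mostly LYZ, at 23.2 FPKM against 8.52 and 8.82 FPKM, and in WT it was CD68, at 64.6 FPKM against 42.0 and 48.9 FPKM, while ITGAM was lowest in WT replicate 3. Their part in the levels of the 10 genes was not tested.

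Libraries of the same number were also set side by side. In the libraries numbered 1, S34F was above WT for 8 of the 10 genes (50.2% of all genes tested), with a median difference of 0.10 on the log2 scale. In those numbered 2 it was above for 8 of 10 (47.1%), with a median of 0.19. In those numbered 3 it was above for 3 of 10, AURKA, BUB1 and BUB1B (56.2%), with a median of -0.07. Both S34F replicates 1 and 2 were above all 3 WT libraries for 6 of the 10 genes, CDC20, PLK1, AURKA, AURKB, BUB1 and BUB1B (18.2% of all genes tested). With the replicate number as a block in limma, the standard error of CDK1 was 0.09 in place of 0.21. That of CCNB1 was 0.09 in place of 0.24 and that of BUB1 was 0.10 in place of 0.31. It was 0.09 in place of 0.17 for CCNB2 and 0.11 in place of 0.21 for BUB1B. The change was smaller for PLK1 (0.18 in place of 0.22), CDC20 (0.19 in place of 0.23) and AURKB (0.15 in place of 0.19). It was also smaller for AURKA (0.13 in place of 0.16) and TTK (0.10 in place of 0.12). The block left 0 of the 10 genes below an unadjusted p of 0.05, with the smallest at 0.0675, for AURKA. Of all 10942 genes tested in the blocked fit, 174 higher and 269 lower in S34F were below it. The blocked interval of CCNB1 was -0.23 to 0.21 and that of CCNB2 was -0.19 to 0.26.

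S34F replicate 3 was the lowest of its group for 10 of the 10 genes, so leaving it out could only raise their S34F means. WT replicate 3 stayed in that fit. Without S34F replicate 3, 9 of the 10 genes had a higher mean in S34F, and 3 had an unadjusted p under 0.05 from limma (5.34% of all genes tested were higher in S34F at that threshold). PLK1 had a log2 fold change of 0.35 (SE 0.09, unadjusted p = 0.00920, adjusted p = 0.301 from limma). CDC20 had 0.28 (SE 0.06, unadjusted p = 0.00555, adjusted p = 0.262 from limma). AURKA had 0.41 (SE 0.15, unadjusted p = 0.0364, adjusted p = 0.428 from limma). None of the 3 had an adjusted p under 0.05. With replicates 1 and 2 of both groups only, a choice made after seeing the data, 3 genes had an unadjusted p under 0.05 (8.29% of all genes tested were higher at that threshold). These were PLK1 at 0.35 (unadjusted p = 0.0159, adjusted p = 0.202 from limma), CDC20 at 0.27 (unadjusted p = 0.00247, adjusted p = 0.137) and BUB1 at 0.25 (unadjusted p = 0.0118, adjusted p = 0.188). TTK stayed lower in S34F in both fits, at -0.09 and -0.17 on the log2 scale. Without WT replicate 3, 3 of the 10 genes had a higher and 7 a lower mean in S34F. Without WT replicate 1, AURKA alone passed that threshold, with an unadjusted p of 0.0404 from limma. Of all 10940 genes tested in that fit, 70 higher and 95 lower in S34F passed it. Leaving out 1 library at a time turned the direction for 7 of the 10 genes, all except AURKA, BUB1B and TTK.

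Ratios between partners, which do not depend on the library scaling, were compared as well, for 5 pairs of genes chosen after the values were seen. AURKA over AURKB was 1.25, 1.29 and 1.62 in S34F and 1.16, 0.890 and 1.04 in WT, with means of 1.39 ± 0.202 (SD, n = 3) and 1.03 ± 0.137 (n = 3). The groups did not overlap. The exact permutation p was 0.1, two-sided, the smallest that 3 libraries against 3 can give, and 0.5 after adjustment over the 5 ratios. CDC20 over CCNB1 was 1.93, 1.73 and 1.60 in S34F and 1.71, 1.38 and 2.21 in WT (exact permutation p = 0.9), and PLK1 over CDK1 was 3.04, 2.50 and 2.39 in S34F and 2.40, 2.05 and 3.18 in WT (exact permutation p = 0.9). In both of these ratios WT replicate 3 was the highest of the 6 libraries. The ratios CCNB1 over CCNB2 and BUB1 over BUB1B had exact permutation p of 0.9 and 0.8, two-sided.

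The wider mitotic machinery was read from 7 lists of 115 genes, of which 106 were tested and 9 were below the filter. Of those tested there were 69 with a higher and 37 with a lower mean in S34F. Their median log2 fold change was 0.05, beside 0.01 over all genes tested, of which 54.6% were higher. Of the 106, 1 passed the limits for a call (0.585% of all genes tested did), and 3 had an unadjusted p under 0.05 (2.39%), all higher in S34F. Groups did not overlap for 7 genes higher and 1 lower in S34F, beside 7.38% of all genes tested. ANAPC13, a small scaffold subunit of the anaphase-promoting complex, had 13.1, 13.5 and 13.4 FPKM in S34F and 6.01, 7.49 and 7.46 FPKM in WT, with no overlap. Its log2 fold change was 0.85 (SE 0.11, unadjusted p = 0.000160, adjusted p = 0.488 from limma). PMF1, a subunit of the MIS12 complex at the kinetochore, had 13.5, 13.9 and 16.7 FPKM in S34F and 9.40, 11.1 and 10.1 FPKM in WT, also with no overlap, and a log2 fold change of 0.48 (unadjusted p = 0.00643 from limma). MKI67, which coats mitotic chromosomes, had 5.30, 4.99 and 2.93 FPKM in S34F and 2.58, 2.25 and 3.11 FPKM in WT, with a log2 fold change of 0.54 (unadjusted p = 0.0327 from limma). Unlike ANAPC13 and PMF1, MKI67 was higher in S34F replicates 1 and 2 and not in S34F replicate 3.

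Among regulators of the CDK1 switch, 10 of 15 tested were higher and 5 lower. The largest difference upward was CDC25B, a phosphatase that activates CDK1, at 9.48, 6.27 and 5.23 FPKM in S34F and 5.13, 5.01 and 4.44 FPKM in WT (log2 fold change 0.41, unadjusted p = 0.0744 from limma). The CDC25B groups did not overlap, and S34F replicate 1 was the highest by far. The largest downward was WEE1, the kinase that restrains CDK1 (-0.17, unadjusted p = 0.602 from limma). Among partners of the Aurora and Polo kinases, 6 of 10 were higher, from BIRC5, the survivin subunit of the passenger complex (-0.20, unadjusted p = 0.308 from limma), to INCENP, its scaffold (0.08, unadjusted p = 0.648). None of the genes in either list had an unadjusted p under 0.05.

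Among the other kinetochore and checkpoint genes, 14 of 21 tested were higher, and CENPF, a protein of the outer kinetochore, had the largest downward difference (-0.13, unadjusted p = 0.358 from limma). For the anaphase-promoting complex and its targets, 15 of 19 were higher, with ANAPC15, the subunit that helps to turn the checkpoint off, at the lower end (-0.11, unadjusted p = 0.435 from limma). UBE2C, the conjugating enzyme that works with this complex, was below the filter, at 0.301, 0.407 and 1.05 FPKM in S34F and 0.243, 0.462 and 0.967 FPKM in WT. It was named after its values were seen, because its highest values lay in the replicate 3 of each group. Among spindle motors and cytokinesis genes, 11 of 17 tested were higher, from HMMR, a microtubule-binding protein (-0.11, unadjusted p = 0.489 from limma), to CKAP5, a microtubule polymerase (0.18, unadjusted p = 0.248). Among condensins and mitotic chromosome genes, 4 of 10 were higher, and SMC2, a core condensin subunit, had the largest downward difference (-0.08, unadjusted p = 0.495 from limma).

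Of the transcription factors that act on G2/M genes, 9 of 14 were higher in S34F. The largest difference upward was LIN54, the DREAM subunit that binds the CHR (0.23, unadjusted p = 0.0943 from limma), and its groups did not overlap. FOXM1, which drives late cell cycle genes, had 10.3, 9.48 and 3.21 FPKM in S34F and 8.46, 9.95 and 7.46 FPKM in WT. FOXM1 was lowest in S34F replicate 3, as were 7 of the 10 genes (27.3% of all genes tested), and lowest of WT in WT replicate 3. Its log2 fold change was -0.27 (SE 0.37, unadjusted p = 0.490 from limma). By list, the median deviation in S34F replicate 3 ran from -0.01 for kinetochore and checkpoint partners to -0.22 for spindle motors, against -0.39 for the 10 genes and 0.01 for all genes tested. In WT replicate 3 it ran from -0.12 to -0.23, against -0.19 for the 10 genes and -0.04 for all genes.

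How alike the genes were over the 6 libraries was described by Pearson's r on log2(FPKM + 1), with no test, since all points share the same 6 libraries and their depth. CDK1 was most like CCNB2 (r = 0.989), as were CCNB1 (0.970) and BUB1 (0.978). CDC20 was the gene most like PLK1 (0.966) and AURKB (0.965). BUB1B was most like BUB1 (0.922), AURKA most like BUB1B (0.730) and TTK most like CCNB1 (0.723), and AURKA with TTK had the lowest value of any pair, at -0.16. Apart from AURKA, each gene was thus most like another gene of its own replicate 3 pattern, which rests on the same 6 libraries.

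Against the mean of the 10 genes, the median r was 0.18 over the 5640 other genes with a mean of at least 5 FPKM. The upper quartile of these genes was 0.79. The median r was 0.94 for the 7 condensin and mitotic chromosome genes at that level, 0.86 for 5 partners of the Aurora and Polo kinases and 0.82 for 7 transcription factors. It was 0.72 for 12 regulators of the CDK1 switch and 0.68 for 9 spindle motor and cytokinesis genes. For 15 genes of the anaphase-promoting complex it was 0.42, and for 13 kinetochore genes 0.40. The medians from 0.72 down lay below the upper quartile of the other genes. The gene most like the mean of the 10 was GFI1B, a transcriptional repressor needed for erythroid and megakaryocytic development (r = 0.9998), at 13.8, 14.2 and 8.23 FPKM in S34F and 12.4, 11.7 and 9.23 FPKM in WT. The next were CNBP, a nucleic acid-binding zinc finger protein (0.998), PRMT5, an arginine methyltransferase (0.998), PRR14 (0.996) and WDR74 (0.996). At the other end were MED31, a Mediator subunit (r = -0.9995), CSAG1 (r = -0.998) and BTG2, an antiproliferative gene, which had 35.5, 33.3 and 72.6 FPKM in S34F and 40.0, 41.8 and 58.3 FPKM in WT (r = -0.996). BTG2 thus mirrored the mean of the 10 genes, though not each of them, and was highest in the replicate 3 of each group.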

How the data were processed

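RNA from 3 S34F and 3 WT samples was sequenced on an Illumina system. Expression was deposited by the authors as FPKM, in 1 table of 31142 genes by 6 libraries. The values are not whole numbers, although the table is named for raw counts. The submitters' processing notes name StringTie and edgeR without a version or role. The aligner, genome build and annotation are not given in the sources used here. The table also holds the authors' fold changes, p-values and q-values per gene, which were not used.

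Values were transformed to log2(FPKM + 1), and limma 3.58.1 (R 4.3.3) with a mean-variance trend was fitted to the 10942 genes with a mean of at least 1 FPKM, without a block, then adjusted by Benjamini-Hochberg. To be called, a gene needed an unadjusted p under 0.05 and more than a 1.5-fold difference. The fit was tested on simulated data with independent noise for each gene and library, so without a shift shared by the replicate 3 libraries. Python 3.11.15 and scipy 1.17.1 gave the exact permutation tests. Depth was estimated by taking the commonest FPKM times length among single-exon, single-transcript genes as 1 fragment, which is an assumption. The fragments per gene, which set the counting precision, were estimated from that depth and the longest transcript. Coordinates and base composition were taken from GENCODE 29 (GRCh38), where 31002 of the identifiers were found, and promoters from RefSeq GRCh38.p14. MNDA, MS4A1 and CD2 were not analysed here.

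Groups were taken from the sample titles. Libraries with the same number deviated together from their group means, with correlations of 0.21, 0.17 and 0.38 for numbers 1 to 3, all above 0.1, so by that rule equal numbers were treated as pairs in a second fit with a block. S34F replicate 2 also correlated with WT replicate 1 (0.20), and S34F replicate 1 with WT replicate 2 (0.13), so this check tells number 3 from the rest but not numbers 1 and 2 from each other. The members, lists and tests were chosen with earlier results of these data known. The genes named are the 10 members, every called gene and the largest rise and fall of each list, the 5 genes most and 3 least like the mean of the members, and each member's most alike member. Alternatives changed the scaling (median-ratio, upper quartile, TPM, quantile), pseudocount, filter, trend, robust fit, block and libraries.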

Additional observations from a re-analysis of the deposited data

How the results depend on the processing

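None of the 10 genes passed the limits for a call under any of 18 alternatives. Their median log2 fold change, 0.03 over all libraries, ran from -0.09 to 0.24 when 1 library was left out. Of 179 values of single genes, 22 changed sign and 7 had an unadjusted p under 0.05 from limma. The sign changed for CDC20 under median-ratio scaling (-0.00746) and quantile normalization (-0.0116), for CDK1 under quantile normalization (-0.00254) and for CCNB1 after rescaling to TPM (0.0265). With 1 library left out, the log2 fold change ran from -0.14 to 0.20 for CDK1, -0.19 to 0.21 for CCNB1, -0.0728 to 0.18 for CCNB2, -0.0627 to 0.35 for PLK1, -0.22 to 0.12 for AURKB, -0.15 to 0.28 for CDC20 and -0.0581 to 0.49 for BUB1. With replicates 1 and 2 only it was 0.0243 for CCNB1 and 0.10 for AURKB. The count of the 10 genes with an unadjusted p under 0.05, 0 over all libraries, ran from 0 to 3 with 1 library left out, 3 without S34F replicate 3 and 1 without WT replicate 1 (AURKA, unadjusted p = 0.0404 from limma), and was 3 with replicates 1 and 2 only.

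Over all genes, 64 were called, against 122 with a pseudocount of 0.1 or 0.01, 22 with a mean of at least 5 FPKM (fewer genes tested, TTK not among them) and 186 with replicates 1 and 2 only. The count ran from 67 to 180 with 1 library left out, the highest without S34F replicate 3. Of the 7 related lists 1 gene was called, against 2 after rescaling to TPM, with either smaller pseudocount and with replicates 1 and 2 only, and 1 to 2 with 1 library left out. The replicate block gave 87 calls over all genes, none among the 10, and changed no call among the 10 genes or the lists. The cause of these shifts was not tested. Rescaling to TPM moved the median of all genes to 0.05, with 6918 higher and 4024 lower. The number of the 10 genes whose 95% interval stayed inside 1.5-fold, 6 over all libraries, was 9 with the replicate block or with replicates 1 and 2 only, 4 with a pseudocount of 0.01 or without a filter, and 1 to 5 with 1 library left out.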
